A study of Drosophila melanogaster with 2 samples.

Results

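The 10 genes described here supply deoxynucleotides or work at the replication fork, and were taken by symbol from the Ensembl annotation of the fly genome: Ts, RnrL and RnrS, PolA1, PolA2, PolE1 and PolD1, PCNA, RfC3 and RfC4. They are 10 of 13945 protein-coding genes on the 6 chromosome arms, and all 10 symbols matched a gene. Myb was mapped in whole Drosophila melanogaster embryos of 0 to 24 h, males and females pooled, from a transgenic line with GFP fused to the C terminus of Myb, by chromatin immunoprecipitation with an anti-GFP antibody and sequencing. There was 1 group of 2 biological replicates, with no untagged or other condition to compare, so every value below averages over all cell types and stages of the embryo. The labels state neither the promoter that drives the fusion nor whether untagged Myb was also present. Peaks on build dm6 came in 4 lists: 30000 peaks for each replicate, 30000 for both replicates pooled, and the called set of 6100 that passed the submitters' reproducibility filter (irreproducible discovery rate, IDR). The lists hold no read counts, so the depth behind a peak is unknown.

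Ribonucleotide reductase turns ribonucleotides into deoxyribonucleotides, with RnrL as its large and RnrS as its small subunit, and thymidylate synthase (Ts) makes the thymidine nucleotide. Polymerase alpha, whose catalytic subunit is PolA1 and whose B subunit is PolA2, extends the primers. Polymerases epsilon (PolE1) and delta (PolD1) then copy the leading and lagging strands. PCNA is the ring that holds polymerases on DNA, and replication factor C, to which RfC3 and RfC4 belong, loads it. In flies, S phase genes such as PCNA and RnrS are known targets of E2F, and the DNA replication-related element (DRE), the binding site of the factor DREF, was described at the promoters of PolA1 and PCNA. Myb is a subunit of the Myb-MuvB complex, known for its control of genes of the G2 and M phases.

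The sequence just upstream of the transcription start site (TSS) is shown first, because it holds the summit of 5 of the 6 called peaks described below, those of the genes other than RnrS. Each run is the sense strand, 5' to 3', of the bases that end 1 base before the TSS, from the NCBI sequence of the dm6 assembly. Capitals mark consensus words that lie whole within the run, on either strand: E2F, DRE, Myb site and cell cycle homology region (CHR), spelled out below, and ATCGATA, a core of the DRE. The genes with a called peak were Ts (chr2L:2969639-2969738, minus strand), RfC4 (chr3L:4136039-4136138, minus), RfC3 (chr2L:10419090-10419189, plus), PolA2 (chr3R:27239086-27239162, plus, cut to 77 bases where the exon of CG31064 begins) and PolA1 (chr3R:21671751-21671850, minus).
Ts: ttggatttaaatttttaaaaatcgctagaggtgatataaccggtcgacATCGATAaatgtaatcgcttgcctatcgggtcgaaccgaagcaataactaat
RfC4: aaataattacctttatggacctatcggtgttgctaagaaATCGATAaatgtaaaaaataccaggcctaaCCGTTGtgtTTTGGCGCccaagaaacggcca
RfC3: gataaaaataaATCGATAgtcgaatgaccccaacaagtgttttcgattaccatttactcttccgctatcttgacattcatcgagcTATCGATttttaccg
PolA2: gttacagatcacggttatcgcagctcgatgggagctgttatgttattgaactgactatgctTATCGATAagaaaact
PolA1: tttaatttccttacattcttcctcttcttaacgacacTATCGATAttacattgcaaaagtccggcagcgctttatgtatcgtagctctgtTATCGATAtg
The genes without a called peak were PolE1 (chr3R:23348028-23348127, plus), RnrL (chr2L:10327944-10328043, minus) and PolD1 (chr3L:15987816-15987915, minus).
PolE1: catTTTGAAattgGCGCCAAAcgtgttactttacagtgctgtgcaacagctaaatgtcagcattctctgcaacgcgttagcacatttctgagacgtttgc
RnrL: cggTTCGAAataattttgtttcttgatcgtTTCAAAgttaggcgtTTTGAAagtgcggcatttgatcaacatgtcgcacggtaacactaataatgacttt
PolD1: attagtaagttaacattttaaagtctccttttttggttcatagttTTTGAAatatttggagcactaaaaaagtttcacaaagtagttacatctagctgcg
The ATCGATA core lies in this stretch at all 5 genes of the first group and at none of the 3 in the second. The sequence at PCNA and RnrS is not shown, and both go against that split. PCNA, without a called peak, holds the core within a full DRE, with its middle at -23.5 bp from the first of 2 TSSs. RnrS, with a called peak, holds no core within 100 bp. Of all protein-coding genes 16.6% hold the core within 100 bp to either side of a TSS, a wider window than the upstream stretch. The 3 genes of the second group hold CHR words in the upstream stretch, and PolE1 an E2F word as well. In the wider window of 100 bp to either side, 39% of genes hold a CHR word. Ts, RfC3 and RfC4 hold CHR words farther upstream, and 1 of those at RfC4 crosses the edge of the stretch.

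A called summit lay within 500 bp of a TSS at 6 of the 10 genes, Ts, RfC4, RfC3, PolA2, PolA1 and RnrS, where 35.6% of all protein-coding genes had one. PCNA, RnrL, PolE1 and PolD1 had none. By enzyme, both polymerase alpha genes and both clamp loader genes among the 10 had a called summit. Ribonucleotide reductase had one at the small subunit gene alone. The catalytic subunit genes of polymerases epsilon and delta and the clamp gene PCNA had none. With 1 TSS each, Ts, PolA1, RfC3 and RfC4 lie 1488 bp or more from the next protein-coding TSS, so their summits are not shared with another protein-coding promoter. The members were chosen with earlier results of these data known, and the count was not tested. Accessibility was not analysed, so the part that open chromatin at active promoters has in these signals was not tested.

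Ts had the highest signal of the 10. The submitters' peak signal, whose scale is not stated and whose lists are each on their own scale, was 758.4 in replicate 1, 654.8 in replicate 2 and 1417 in the pooled list. It ranked 185, 198 and 192 in the 3 lists. Both replicates placed Ts among the strongest peaks, and its pooled signal was above that of 96.1% of the 4966 protein-coding genes with a called promoter summit. The peak ran from 2969445 to 2969954 on 2L, with its summit at 2969697, 59 bp upstream of the single TSS. The replicate summits lay within 5 bp of each other and of the pooled one, and a weaker second summit of replicate 2 (85.8) lay 255 bp upstream. Ts is gene FBgn0024920, on the minus strand from 2968293 to 2969638.

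The ribonucleotide reductase genes differed in level. RnrS (FBgn0011704, 2R, 11983145 to 11985393, minus strand) had 75.5 and 74.5 in replicates 1 and 2 and 156.1 pooled, the lowest called signal of the 6. It ranked 3768 and 3986 in the replicate lists, and the pooled signal was above that of 29.9% of protein-coding genes with a called promoter summit. Its summit, 112 bp upstream of the TSS, was the farthest of the 6. RnrS has a divergent neighbour, CG34231, whose TSS lies 615 bp upstream, and the pooled summit lay just past the 500 bp window of that TSS. The summits of replicates 1 and 2 lay inside that window, at -480 and -491 bp, so the peak cannot be assigned to RnrS alone. RnrL (FBgn0011703, 2L, 10325026 to 10327943, minus strand) had a pooled summit 8 bp upstream of its TSS with a signal of 61.6, rank 9268, against 93.9 for the weakest called peak. Its replicate signals were 27.8 and 30.2, ranks 10070 and 11183, so both replicates held a weak peak there. No TSS of another protein-coding gene lies within 3 kb of it, and the nearest called summit was 5739 bp away.

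The polymerase alpha genes lay close together in level. PolA2 (FBgn0005696, 3R, 27239163 to 27241228, plus strand) had 133.4 and 127.1 in replicates 1 and 2 and 257.4 pooled, and PolA1 (FBgn0259113, 3R, 21666562 to 21671750, minus strand) had 124.1 and 112.3, and 237.7 pooled. PolA2 was the higher in both replicates. In rank, PolA2 and PolA1 stood at 1979 and 2140 in replicate 1, and at 2069 and 2439 in replicate 2. Their summits lay 32 and 34 bp upstream of the TSS. The PolA2 peak is 187 bp long and is shared with CG31064, which points away from a TSS 78 bp upstream, so the signal cannot be assigned to 1 of these promoters. At PolA1 a second pooled summit of 78.5 lay 240 bp upstream of the TSS, below the called set, and both replicates had it.

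PolE1 and PolD1 had weaker peaks of different kinds. At PolE1 (FBgn0264326, 3R, 23348128 to 23355163, plus strand) the signal was 36.6 in replicate 1, 43.1 in replicate 2 and 80.2 pooled, ranks 7495, 7323 and 7100. All 3 lists placed the summit at the same base, 23348089, 39 bp upstream of the TSS, and the lowest called signal was 1.17 times the pooled value. Of the 3279 protein-coding genes with a pooled but no called summit within 500 bp, 87.4% had a lower signal. PolD1 (FBgn0263600, 3L, 15984322 to 15987815, minus strand) had 19.6 and 29.5 in replicates 1 and 2 and 44.5 pooled, lower than 49.4, the median of those genes. Its strongest pooled summit lay inside the gene, 232 bp downstream of the TSS, and nearer (201 bp) to the TSS of the noncoding gene lncRNA:CR45446. Replicate 1 also had a summit of 19.0, rank 16642, only 9 bp downstream of the PolD1 TSS. Neither replicate 2 nor the pooled list had a summit at that place. A stronger pooled summit of 68.3 lay 552 bp upstream of PolD1 and 131 bp downstream of the TSS of Hip14, its divergent neighbour. That summit had 54.2 in replicate 2, rank 5703, while the nearest summit upstream of PolD1 in replicate 1, 631 bp from its TSS, had 16.1, rank 21288, so the replicates differed there.

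The clamp loader genes RfC4 and RfC3 had called peaks, and the clamp gene PCNA had only a weaker pooled one (56.5). The loader subunit gene RfC38 also had a called peak, but so did PCNA2, a second PCNA gene. The contrast therefore does not extend to both PCNA genes. In the pooled list PCNA2 (360.4) was below RfC4 and RfC3 but above RfC38 (183.9). RfC4 (FBgn0260985, 3L, 4134860 to 4136038, minus strand) had 551.4 and 372.3 in replicates 1 and 2 and 924.4 pooled, ranks 326, 485 and 394. The replicates placed its summit within 1 bp of each other, 36 bp upstream of the TSS, although its signal differed more between them than at the other 5 genes with a called peak. RfC3 (FBgn0032244, 2L, 10419190 to 10420612, plus strand) had 261.8 and 215.6, and 476.0 pooled, with the summit 40 bp upstream. The pooled signal of RfC3 was above that of 80.2% of protein-coding genes with a called promoter summit, and that of RfC4 above 91.4%. A second called summit of 247.2 lay 1479 bp downstream of the RfC4 TSS, but 9 bp from the TSS of ens, which encodes a microtubule-associated protein.

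PCNA (FBgn0005655, 2R, 20261754 to 20262883, minus strand, 2 TSSs 73 bp apart) had no called summit within 500 bp, and it had weak pooled and replicate ones. Its strongest pooled summit had a signal of 56.5, rank 10175, 362 bp upstream of the first TSS and 439 bp downstream of the TSS of the neighbouring gene plu, which is needed for the early embryonic cell cycles. Matched within 100 bp, replicate 1 had 18.8 (rank 16926) and replicate 2 had 35.8 (rank 9053), so the peak was weak in both and ranked in the lower part of the list in replicate 1. Replicate 1 had its strongest summit, 31.8, at another place, 179 bp upstream, and replicate 2 had another of 28.9, 494 bp downstream. No pooled summit lay within 250 bp of either TSS, whereas RnrL and PolE1 had one within 50 bp. Within 2 kb of PCNA there was a called summit, with signals of 113.1, 93.8 and 205.8 in replicate 1, replicate 2 and the pooled list. It lay 1099 bp upstream of PCNA and 3 bp from a TSS of RpS18, which encodes a protein of the small ribosomal subunit, and 298 bp upstream of plu. Within 2 kb, 7 of the 10 genes had a called summit, the 6 above and PCNA, where 44.3% of protein-coding genes had one.

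**Figure D1:**
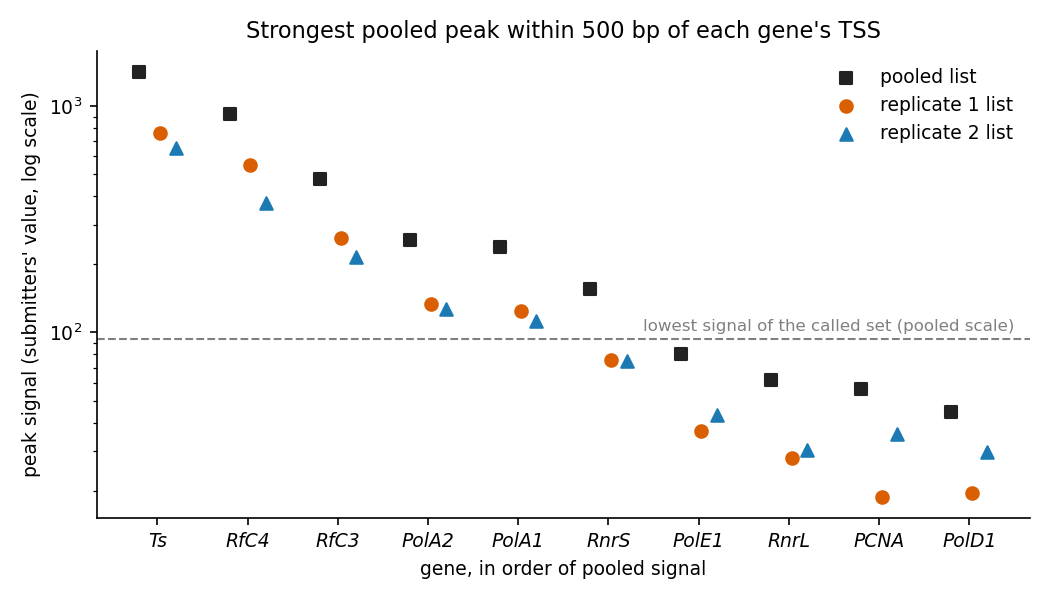
Peak signal on a log axis at the strongest pooled summit within 500 bp of a TSS of each gene, in the pooled list (squares) and, matched within 100 bp, in replicate 1 (circles) and replicate 2 (triangles), each list on its own scale. The 6 genes from Ts (1417) to RnrS (156.1) sit above the lowest pooled signal of the called set (dashed, 93.9), and PolE1 (80.2), RnrL, PCNA and PolD1 (44.5) below it. The called set is the 6100 strongest pooled peaks, so this split follows from the calling.

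**Figure D2:**
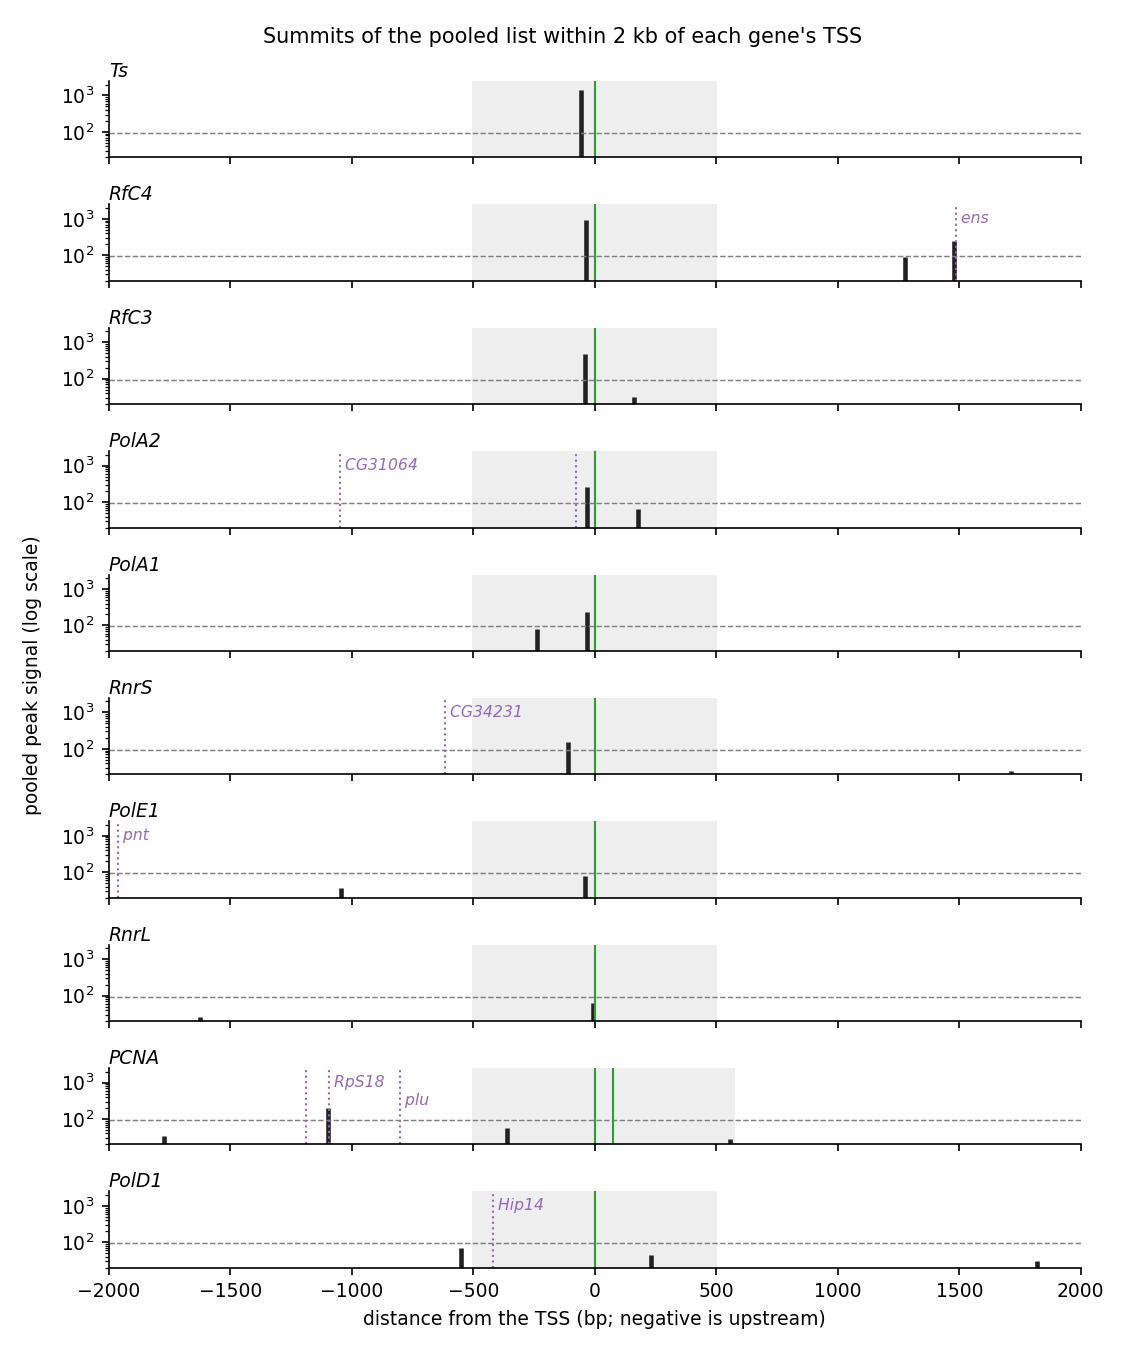
Each panel is 1 gene with its pooled summits as bars of height equal to the signal (log axis) by distance from the gene's first TSS in bp, the TSSs in green, the 500 bp window shaded, TSSs of other protein-coding genes dotted and the lowest called signal dashed. Called peaks of 5 genes stand 32 to 59 bp upstream of the TSS, while the called peak near PCNA stands at RpS18 and the second one near RfC4 at ens.

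All 4 genes without a called summit thus had weaker summits listed in the pooled list and in both replicate lists. The pooled list is labelled as peaks and background for the IDR filter, so an entry in it need not be a bound site. The background for summits of any strength is high. A pooled summit lay within 500 bp of 59.1% of all protein-coding genes, and a summit of replicate 1 or 2 at 59.1% and 58.2%. Within 2 kb these shares were 72.4%, 74.5% and 72.2%. The pooled shares include the genes with a called summit, 35.6% within 500 bp and 44.3% within 2 kb, so they do not count weak peaks alone. Among the 8979 protein-coding genes with no called promoter summit, 36.5% had a pooled one within 500 bp, and at 18.8% the strongest of these was matched within 100 bp in both replicates, as it was at all 4 genes. The lowest called signal was 1.52 times the pooled value at RnrL, 1.66 times at PCNA and 2.11 times at PolD1. Of the 3279 genes with a weaker pooled peak alone, 67.1% had a lower signal than RnrL, 60.4% than PCNA and 41.3% than PolD1. The deposited −log10 q of the pooled peak was 2.92 at PolE1, 1.59 at RnrL, 1.31 at PCNA and 0.70 at PolD1, against 4.13 at every called peak. That is the highest value in the pooled list, and a pooled peak of 91.4, below the called set, also had it. The replicates gave 2.32 and 2.57 at PolE1, 1.16 and 1.06 at RnrL, 0.334 and 1.63 at PCNA and 0.386 and 0.999 at PolD1. In replicate 1 the values at PCNA and PolD1 were the lowest, and a weak peak there cannot be told from background. The weaker peaks of all 4 were 476 bp long, like 91.9% of pooled entries, so their ends carry no shape. That width was also that of 3728 of the 6100 called peaks, PolA1 and RnrS among them, while Ts (510 bp), RfC4 (369 bp), RfC3 (296 bp) and PolA2 (187 bp) had other widths. The weakest called peak had 93.91 and the strongest pooled peak outside the set 93.90, so the border falls within a continuous range of signals.

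**Figure D3:**
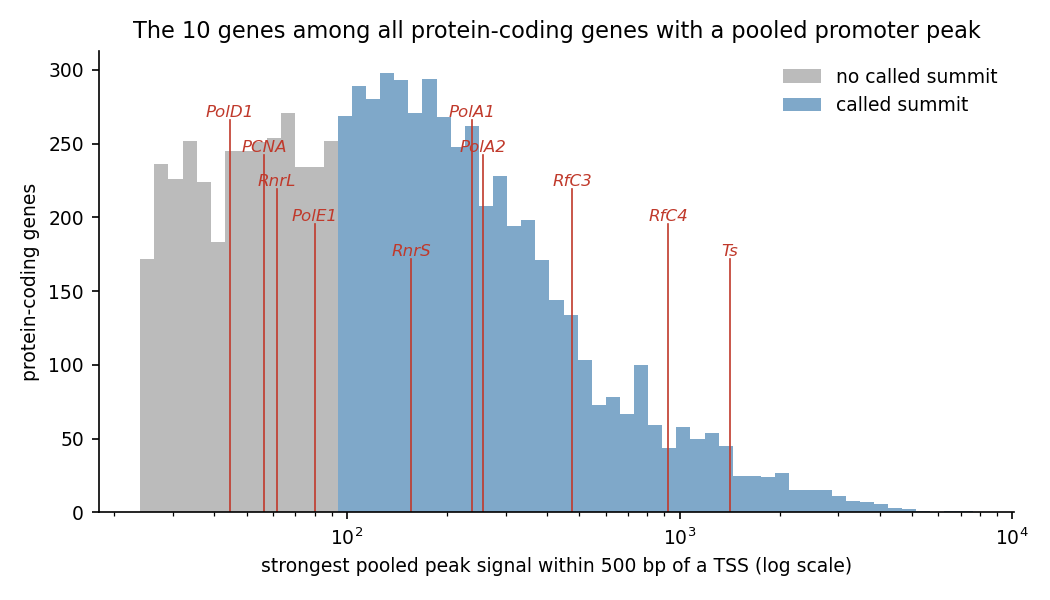
Histogram of the strongest pooled signal within 500 bp of a TSS (log axis) over the 8245 protein-coding genes with such a peak, with (blue) and without (grey) a called summit, and red lines at the 10 genes. The counts change smoothly across the border at 93.9, with PolE1 near it, and Ts and RfC4 lie in the upper tail.

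Because each list is on its own scale, the ratio between the replicates was read against that at other promoter peaks. The log2 ratio of replicate 1 to replicate 2 was 0.21 at Ts, 0.57 at RfC4, 0.28 at RfC3, 0.07 at PolA2, 0.15 at PolA1 and 0.02 at RnrS. Over 3464 called promoter peaks of protein-coding genes its median was 0.10, with quartiles of -0.14 and 0.32, so RfC4 lay outside the quartiles and the other 5 inside. At the 4 weaker peaks the ratio was -0.23 (PolE1), -0.12 (RnrL), -0.93 (PCNA) and -0.60 (PolD1), against quartiles of -0.52 and 0.38 over 1437 weaker promoter peaks found in both replicates. PCNA and PolD1 lay below that range, each with the higher value in replicate 2. The ratio at PCNA rests on the matched replicate 1 summit of 18.8, and replicate 1 had a stronger one of 31.8 elsewhere within 500 bp. With that stronger summit the ratio would be nearer to that of the other weaker peaks, so the low value at PCNA depends on the matching. The order of Ts, RfC4, RfC3, PolA2, PolA1, RnrS and PolE1 was the same in both replicates. That of RnrL, PCNA and PolD1 depended on which summit stood for PCNA. With the summits matched within 100 bp, PCNA (18.8) was the lowest of these 3 in replicate 1 and the highest in replicate 2. With the strongest summit of each list within 500 bp, PCNA (31.8 and 35.8) was above RnrL, and RnrL above PolD1, in both replicates.

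**Figure D4:**
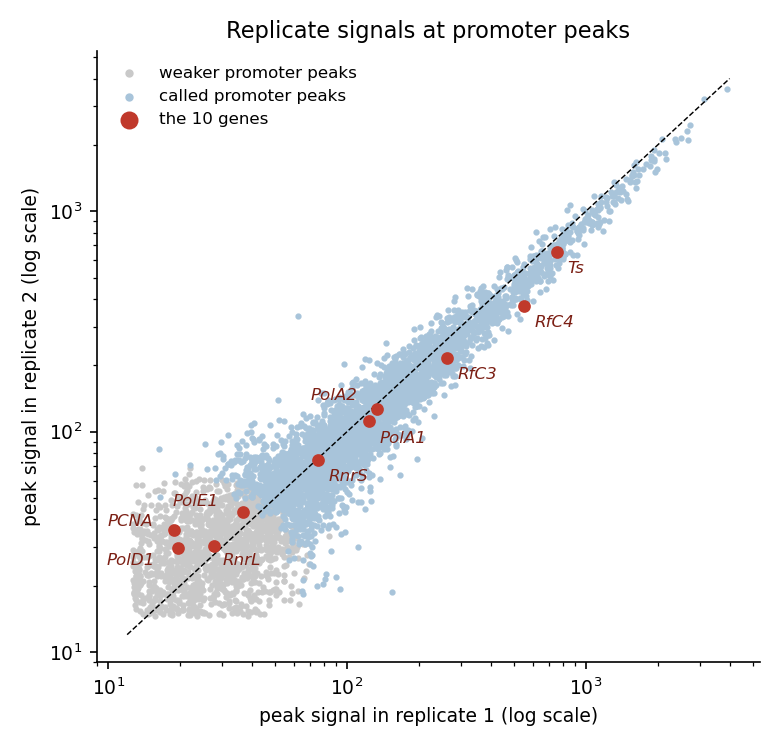
Signal in replicate 1 (x) and replicate 2 (y), both log axes, at promoter peaks of protein-coding genes found in both replicates, called (blue) or weaker (grey), with the 10 genes in red and equal values dashed. Genes from RnrS upward lie in the narrow called cloud, and PCNA and PolD1 lie above the line in the broad weaker one.

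The called summits took a narrow position. At 5 of the 6 genes the summit lay between 30 and 60 bp upstream of the TSS, a range chosen after these values were seen, and at RnrS 112 bp upstream. Over the 4966 protein-coding genes with a called promoter summit, 87.2% of the strongest summits lay upstream, with a median position of -72 bp and quartiles of -184 and -27 bp, and 17.8% lay in that range. The weaker peak of PolE1 lay there too, that of RnrL lay 8 bp upstream of its TSS, and those of PCNA and PolD1 lay farther off. The median called signal of the 6 genes was 366.7, against 224.2 for all genes with a called promoter summit.

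Consensus words within 250 bp of a TSS were counted on both strands, and their presence is a description and not evidence of a site in use. The E2F word (TTTGGCGC, TTTCGCGC, TTTCCCGC or TTTGCCGC) was found at 5 of the 10 genes, where 12.9% of protein-coding genes hold it. These were Ts, RfC4 and RnrS, which had a called summit, and RnrL and PolE1, which had none. RnrS and RnrL held 2 each, and the 5 genes were the same within 100 bp, where 6.30% of genes hold the word. The DRE (TATCGATA) was found at PolA1 with 3 copies and at PolA2 and PCNA with 1 each, where 10.5% of genes hold it. Of these, PolA1 and PolA2 had their summits within 30 bp of a copy, whereas the strongest summit at PCNA lay 338.5 bp from the middle of the word. No gene held both words as spelled here, and E2F sites of other spelling were not searched. The Myb site (CAACGG or TAACGG) was found at RfC4, 7.5 bp from the summit, and at Ts, 174.5 bp from it, where 31.0% of genes hold it. The CHR (TTTGAA or TTCGAA) was found at 8 of 10 genes, all but PolA1 and PolA2, where 66.0% hold it. These were 4 of the 6 genes with a called summit and the 4 without, where 72.4% of all genes with a called promoter summit and 62.5% of the others hold the word. For the E2F word these shares were 15.7% and 11.4%, for the DRE 19.6% and 5.47%, and for the Myb site 38.5% and 26.9%. Words of different kinds overlapped at 0 places in these 10 promoters, and the ATCGATA core is part of the DRE.

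**Figure D5:**
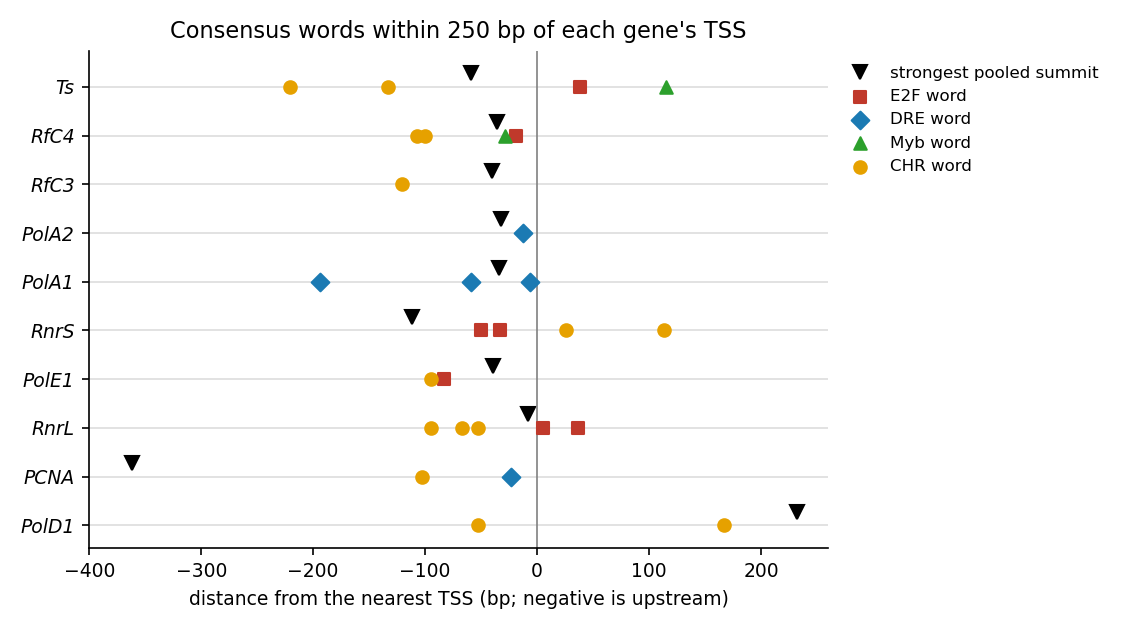
Position of the consensus words (coloured symbols) and of the strongest pooled summit (black triangles) relative to the nearest TSS in bp, with genes in order of pooled signal from the top. DRE words sit beside the summits of PolA1 and PolA2, and the summit of PCNA stands far upstream of its DRE.

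The ATCGATA core, picked after the upstream sequences were seen, lay within 100 bp of a TSS at 6 of the 10 genes. These were Ts, RfC4, RfC3, PolA2 and PolA1, that is 5 of the 6 genes with a called summit, and PCNA of the 4 without. Of all protein-coding genes 16.6% hold it there, 30% of those with a called promoter summit and 9.24% of the others. The middle of the nearest core lay 10 bp from the pooled summit at Ts, 22 bp at RfC4, 28 bp at RfC3, 19 bp at PolA2 and 25 bp at PolA1, and 338 bp at PCNA. Since the word was picked from these sequences, no test was made.

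Other genes of the fork and of nucleotide supply, a list also drawn up with earlier results known, had a called promoter summit in 18 of 31 cases (58.1%), against the same 35.6%. Of the polymerase and primase subunits 4 of 6 had one, led by the primase subunit genes Prim2 (833.5) and Prim1 (200.3) and by PolD2 (160.7). PolE2 (65.9) and PolD3 (26.2) had only weaker pooled peaks, so PolD2 and PolD3, which encode partners of PolD1, fell on either side of the border. Of the clamp loader, clamp and clamp partner genes 4 of 8 had one, with PCNA2, a second PCNA gene, at 360.4, the loader subunit gene RfC38 at 183.9 and CG8142 at 123.7. The alternative loader genes elg1 (65.7) and cutlet (72.0), the flap endonuclease gene Fen1 (29.8) and the ligase gene DNAlig1 (41.3) had weaker pooled peaks alone. Of the other fork proteins 6 of 9 had one, with Top2 (589.0) and Top1 (286.8), which encode topoisomerases, and the chromatin assembly gene Caf1-180 (268.8) leading. RPA3 (46.8) and Mcm10 (35.5) had weaker pooled peaks, and RPA2 had no pooled summit within 500 bp. Of the nucleotide genes 4 of 8 had one, namely the pyrimidine synthesis gene r-l (402.8), dUTPase (378.4), awd, a nucleoside diphosphate kinase (176.0), and Dhod. The genes r (74.6), Shmt (87.2) and dnk (35.0) had weaker pooled peaks. Ts thus had a higher signal than each of these 31 genes. Within 250 bp of a TSS, 11 of the 31 held the E2F word, 9 the DRE, 11 the Myb site and 24 the CHR. The ATCGATA core lay within 100 bp at 11 of them. When a summit counted only for the gene with the nearest TSS, 11 of the 31 had one, where 27.4% of protein-coding genes did, and the 6 of 10 stayed.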

How the data were processed

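Only the 4 dm6 peak lists were analysed (10 columns, no header), and the 4 dm3 lists were not used, because no dm3 annotation was at hand. Per the labels and the deposited file listing, chromatin was sonicated to 200 to 800 bp, relaxed lists were called with a control per replicate and on the pooled alignments, and the IDR set was derived from them. Aligner, peak caller and versions were not given in the sources used here. The deposited peak signal is the submitters' value per peak, and the deposited −log10 q was read from the layout. All 6100 called peaks were the strongest pooled peaks, so calling a gene depends on pooled signal. Without read counts no counting interval could be computed.

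Summits (start plus offset) were assigned to every gene with an Ensembl release 115 TSS within 500 bp or 2 kb, in Python 3.11.15 with pandas 2.3.3. Coordinates are 1-based, and the arm lengths of the NCBI sequence contain every peak. Of the 6100 called entries, 96 repeat an interval and each counted as a summit. The assignment and word search were tested on planted data. The members, lists and words were chosen with earlier results of these data known. Named genes were the 10 members, genes sharing their summits, the nearest neighbours at called summits, and, of the other fork and nucleotide genes, the 3 strongest of each role and those without a called summit; Dhod was named to complete its group of 4, and 1 listed gene is not reported here. With 1 group and no second condition, no test between conditions was possible.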

Additional observations from a re-analysis of the deposited data

How the results depend on the processing

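The count of 6 of 10 genes with a called summit was the same with windows of 250 or 1000 bp, at gene starts alone, for the nearest TSS alone, with 1 summit per interval, by interval overlap, and with the strongest 6100 peaks of either replicate. Over those settings the share of all protein-coding genes ran from 27.4% (nearest TSS alone) to 38.9% (1000 bp). The count was 5 with the 3050 stronger called peaks, which leave out RnrS, where 21.6% of protein-coding genes had a summit. It was 7 within 2000 bp, where 44.3% had one, and 10 with the complete pooled list, where 59.1% had one. For the other fork and nucleotide genes the count of 18 became 10 with the stronger peaks, 29 with the complete pooled list and 11 with the nearest TSS alone, and over all protein-coding genes 4966 became 3017 with the stronger peaks and 8245 with the complete pooled list. The signal near PCNA became 205.8 within 2000 bp, that near PolD1 68.27 within 1000 and within 2000 bp, both at neighbouring promoters. PCNA had no pooled summit within 250 bp, and that of PolD1 went to a noncoding gene when the nearest TSS alone counted. Within 100 bp the Myb word was at 1 gene, where 15.8% of protein-coding genes hold it, and the CHR word at 4, where 39% do. The 4 matched weaker peaks were also matched within 50 and within 200 bp, settings added after the data were seen. The RefSeq promoter table was not run. No paired analysis was possible because there is 1 group. Depth is unknown, so how far it limits the weaker peaks was not tested.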
